A study of Mus musculus domesticus and Mus musculus domesticus x Mus musculus castaneus and Mus musculus castaneus with 27 samples.

Results

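The genes described here encode the subunits of voltage-gated sodium and calcium channels. They were taken by symbol: every protein-coding gene of the count table named Scn with a number and the letter a or b, and every one named Cacna, Cacnb or Cacng with a number. GENCODE M21, a mouse gene annotation on the build GRCm38, holds 40 such genes. Of these, 38 were among the 27071 gene identifiers of the table, while Scn4a and Cacng8 were not analysed here. The 38 comprised 9 sodium channel alpha genes, 4 sodium channel beta genes, 10 calcium channel alpha1 genes, 4 alpha2delta genes, 4 calcium channel beta genes and 7 gamma genes. The rule used the symbol alone, although the family was taken up with earlier results of these data known.

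RNA sequencing was used in the study to describe the transcriptional identity of mouse cell lines, as undifferentiated pluripotent stem cells (PSC) and as motor neurons (MN) differentiated from stem cells in culture. BL6 stands for C57BL/6J, CAST for CAST/EiJ and 129 for 129S6/SvEv. The hybrids, labelled CAS129 and 129CAS, are first-generation crosses of Mus musculus domesticus with Mus musculus castaneus, the subspecies of CAST. The labels name no transgene or drug in any group and do not say how many clones a line holds or whether replicates were separate cultures. The 6 PSC libraries comprised 2 of BL6, 2 of CAST and 2 of CAS129. The 14 MN libraries comprised 7 of BL6, 1 of CAST, 2 of 129, 3 of CAS129 and 1 of 129CAS. RNA of the 2 cell types was isolated with different kits, so the effect of the kit cannot be told apart from that of the cell type.

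A sodium channel is a single large alpha protein that forms the pore, opens on depolarisation and carries the rising phase of the action potential, together with small beta proteins that tune gating and anchor the pore. A calcium channel has an alpha1 pore, an intracellular beta subunit needed to bring it to the membrane and an extracellular alpha2delta subunit that raises the number of channels at synapses. Calcium entering through these pores triggers transmitter release at nerve terminals, the neuromuscular junction included. Several gamma genes are better known as partners of AMPA-type glutamate receptors than of calcium channels.

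The sodium alpha genes of chromosome 2 are close relatives, which bears on how reads are assigned to them. Over windows of 31 bases, 20.2% of the coding sequence of Scn3a, 17.9% of Scn2a, 13.6% of Scn1a and 12.6% of Scn9a also occurred in transcripts of other genes. The median over the 38 genes was 0.108%, and 17 genes shared no window. The longest identical coding run of Scn2a was 188 bases with Scn1a, 143 with Scn3a, 101 with Scn9a and 32 with Scn8a. A read that falls inside such a run cannot be assigned to 1 of the genes by its sequence, and the labels do not state how such reads were counted. The values of Scn1a, Scn2a, Scn3a and Scn9a therefore carry that uncertainty.

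Levels are given as CPM, the counts of a gene per 1 M counts of its library after TMM scaling (M stands for mega), and shares of a class are compared between genes only per kilobase of exon. The quasi-likelihood test of edgeR was run on every gene of a comparison and its p-values were adjusted over all of them by Benjamini and Hochberg's method. A gene is said to rise, fall or be called where that value is under 0.05. Fold changes are given as log2 with their standard error (SE). The smallest and largest library totals were 4.5 M and 13.62 M counts among PSC, and 5.61 M and 44.57 M counts among MN. The MN label was checked against 9 motor neuron markers. Of these, 8 rose in MN, and their summed level was 320 to 2140 CPM in MN against 5.29 to 38.6 CPM in PSC; Lhx3, the remaining one, had 0 counts in all CAS129 and 129CAS MN libraries. All 10 smooth muscle and fibroblast markers also rose in MN, at 6850 to 35200 CPM in sum against 249 to 3070 CPM in PSC, so the MN libraries held RNA of both kinds. Other neurons were represented as well: 9 of 10 spinal interneuron markers rose (37.2 to 549 CPM in sum against 9.84 to 22.3 CPM in PSC), and of 7 sensory neuron markers 3 rose and 1 fell (57.6 to 443 CPM against 26.2 to 35.3 CPM). The part of these markers in the channel differences was not tested. In such bulk RNA, fewer cells of a type and less RNA per cell cannot be told apart.

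Most of the channel genes were higher in MN than in PSC. With the 3 genotypes that had both cell types (BL6, CAST and CAS129) fitted jointly, 28 of the 33 members tested rose, 2 fell and 3 did not pass the test. Of all genes tested, 75.4% were called: 36.6% rose and 38.9% fell. The median log2 change of the members was 3.15, against -0.04 for all genes. For 22 of the 33 members (66.7%), every MN library lay above every PSC library, as it did for 20.5% of all genes. Every MN library lay below every PSC library for 1 member, Cacng6 (3.03%), and for 11.9% of all genes. By genotype, 29 of 34 tested members rose and 2 fell in BL6 (36% and 34.2% of all genes, 70.2% together), 31 rose and 1 fell in CAST (30.3% and 25.7%, 56% together; its MN arm is 1 library, assumed to vary like the other groups), and 26 of 33 rose and 1 fell in CAS129 (32.7% and 25.8%, 58.4% together). These counts were not tested against each other.

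**Figure D1:**
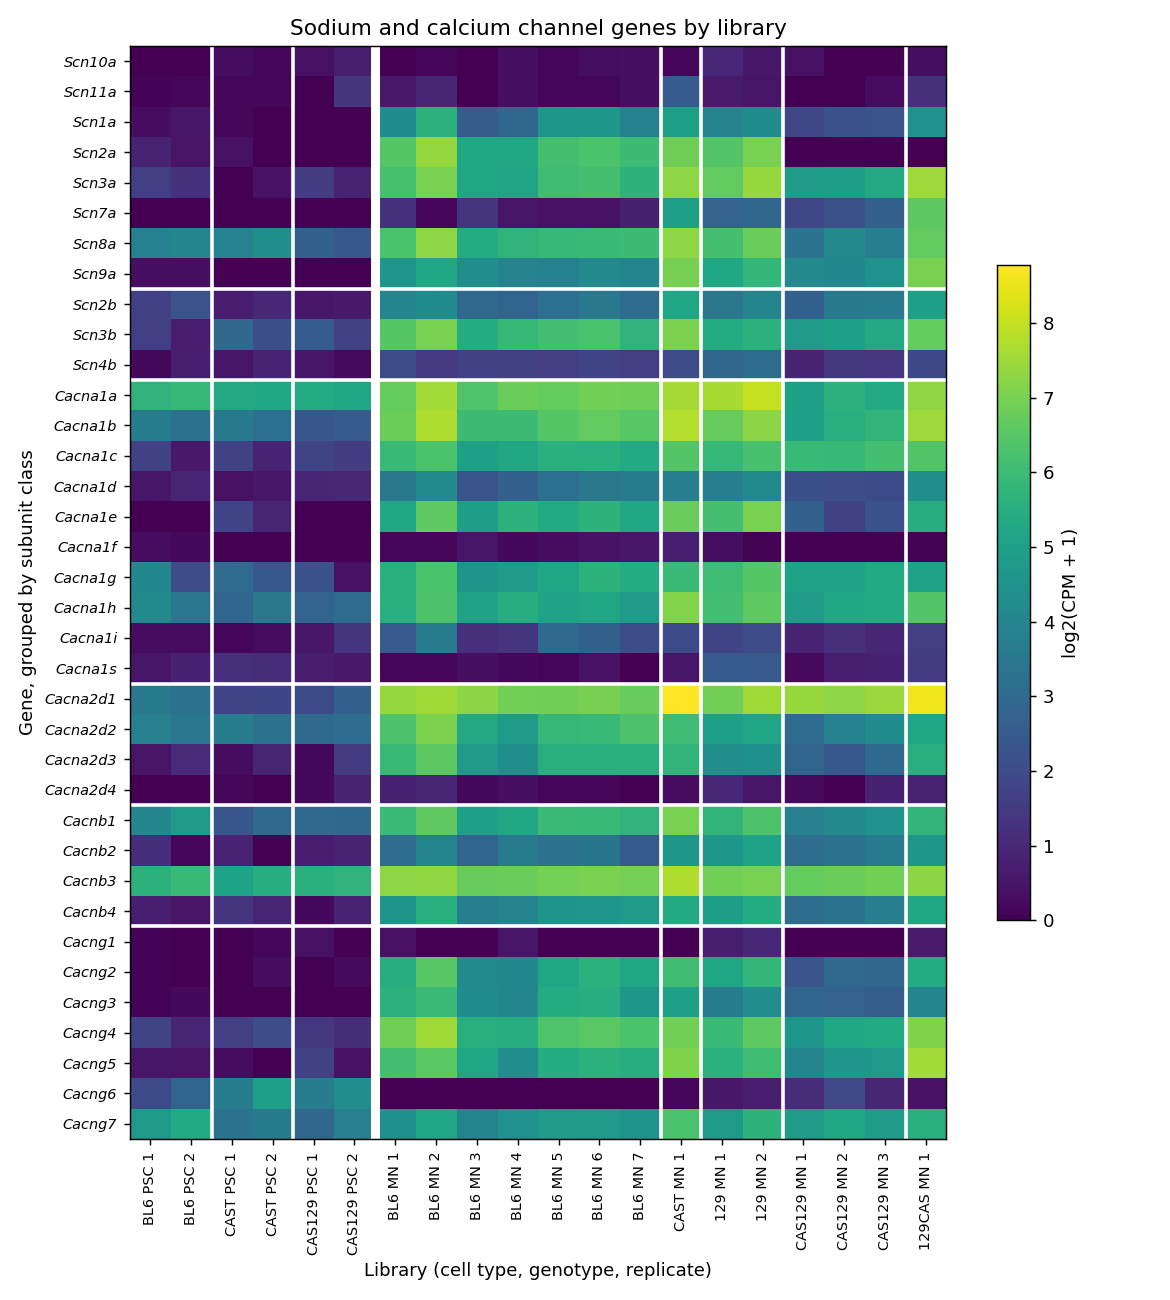
Level of channel genes (rows, grouped by subunit class) in the 20 libraries (columns), as log2(CPM + 1) from dark (0) to yellow. The 6 PSC libraries on the left are dark for most genes, Cacng6 is dark in the 7 BL6 MN libraries, and Scn2a is at 0 in the 6 hybrid libraries.

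Among the sodium channel pores, Scn1a, Scn3a, Scn7a, Scn8a and Scn9a rose over the 3 genotypes, and Scn2a rose where it could be measured. Scn2a (chr2:65620771-65767447, plus strand) encodes a channel of the axon initial segment and is the gene that marks this family here. It stood at 0.800 and 0.372 CPM in BL6 PSC and at 0.317 and 0 CPM in CAST PSC. In BL6 MN it ran from 37.1 to 167 CPM with a median of 72.0, in CAST MN it was 116 CPM, and in 129 MN it was 86.2 and 129 CPM. All 10 of these MN libraries lay far above the 4 PSC libraries, and over BL6 and CAST the log2 change was 7.44 (SE 0.68, adjusted p = 5.1e-07). In that comparison 29 of 33 members rose and 2 fell, beside 35.5% and 36.4% of all genes (71.8% together).

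Scn2a had 0 counts in all 6 hybrid libraries, in PSC and MN alike, and is treated as not measured there. It was not alone in this: of 10057 genes with a mean of at least 10 CPM in the 10 MN libraries that are not hybrid, 450 (4.47%) were also at 0 in every hybrid library. Map2, Ank2, Ank3 and Rims1, other genes of neurons, were among them. No hybrid level of Scn2a is given below, and shares of the sodium alpha class in hybrids are shares of the other genes.

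Scn3a (chr2:65457118-65567627, minus strand), the sodium channel most known from embryonic neurons, was 2.11 and 1.41 CPM in BL6 PSC, 0 and 0.336 CPM in CAST PSC and 1.97 and 0.854 CPM in CAS129 PSC. In MN it ran from 34.1 to 130 CPM in BL6 (median 65.8), and it was 154 CPM in CAST, 101 and 171 CPM in 129, 27.5, 28.8 and 38.9 CPM in CAS129 and 178 CPM in 129CAS. Every MN library was above every PSC library, and the log2 change was 5.48 (SE 0.60, adjusted p = 2.7e-07).

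Scn8a (chr15:100869858-101045938, plus strand) encodes the channel of mature initial segments and nodes of Ranvier, and its RNA was already present in stem cells. It stood at 13.5 and 15.0 CPM in BL6 PSC, 13.7 and 19.7 CPM in CAST PSC and 5.60 and 4.27 CPM in CAS129 PSC. The BL6 MN libraries ran from 41.8 to 156 CPM (median 61.3), CAST MN was 157 CPM, 129 MN 72.9 and 109 CPM, CAS129 MN 9.17, 16.4 and 12.5 CPM, and 129CAS MN 102 CPM. The CAS129 MN libraries overlapped the PSC range while the other MN libraries did not, and the log2 change over the 3 genotypes was 2.00 (SE 0.33, adjusted p = 3.4e-05).

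Scn1a and Scn9a rose from near 0. Scn1a (chr2:66270778-66440840, minus strand), prominent in inhibitory neurons and in motor neurons, was at most 0.447 CPM in any PSC library and ran from 4.99 to 49.2 CPM in BL6 MN (median 18.4); its log2 change was 6.43 (SE 0.71, adjusted p = 2.7e-07). Scn9a (chr2:66480080-66634962, minus strand), a channel of peripheral sensory and autonomic neurons, was at most 0.298 CPM in PSC and 13.4 to 37.1 CPM in BL6 MN (median 16.7). Its log2 change was 7.63 (SE 0.63, adjusted p = 9.3e-09), and for both genes no MN library overlapped a PSC library.

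Scn7a (chr2:66673425-66784914, minus strand) encodes an atypical member known as a sensor of sodium concentration. It had 0 counts in all 6 PSC libraries and was at least 83.2-fold higher in MN over the 3 genotypes, against a floor of 3 counts over the PSC group (adjusted p = 2.5e-06). The bound rested on the CAST MN library, without which it was 31.8-fold; it was 6.21-fold within BL6 and 16.1-fold within CAS129. The MN libraries were far apart by genotype, from 0.102 to 1.48 CPM in BL6 to 94.4 CPM in 129CAS. Scn11a (chr9:119753759-119825456, minus strand), a channel of pain-sensing neurons, did not pass the test, with a log2 change of 1.02 (SE 1.13, adjusted p = 0.42). Scn10a, another channel of pain-sensing neurons, stayed under the filter of 1 CPM in at least 2 libraries, with at most 0.983 CPM anywhere.

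**Figure D2:**
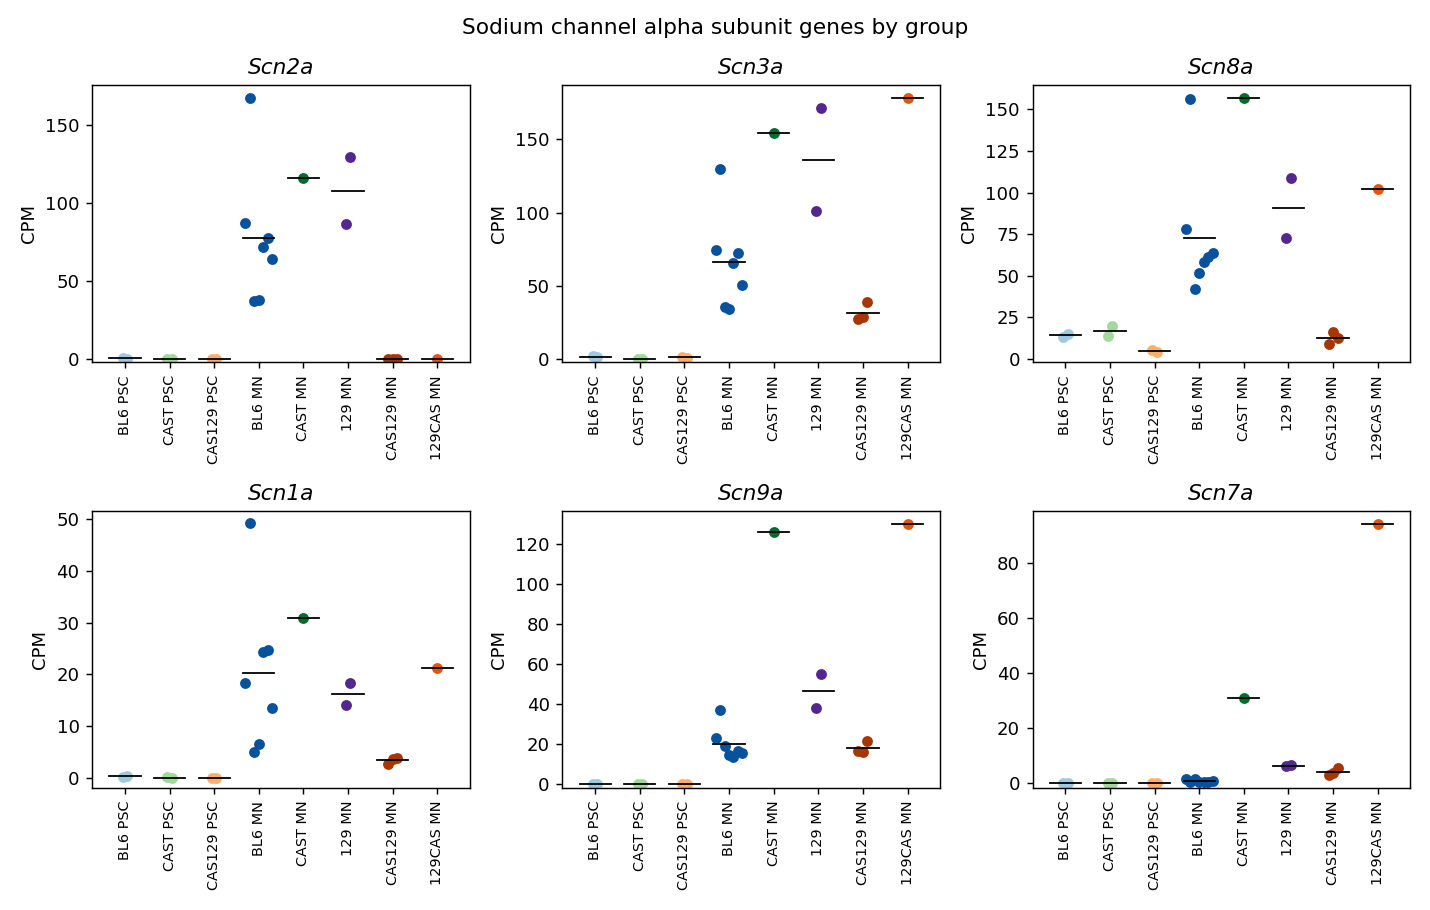
CPM of 6 sodium channel alpha genes in each library (points) by group, with the group mean as a line; each panel has its own axis. Scn2a is 0 in the CAS129 and 129CAS groups, where it was not measured, and Scn7a is 30.9 CPM in CAST MN and 94.4 CPM in 129CAS MN against at most 1.48 CPM in BL6 MN.

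Per kilobase of exon, the make-up of the sodium pore class is given for each cell type, with no test. Scn8a held 72.7% ± 5.24 (SD, n = 2) of the class in BL6 PSC. In BL6 MN, Scn2a held 30.1% ± 2.28, Scn3a 27.0% ± 1.97 and Scn8a 23.8% ± 3.23 (SD, n = 7). The ranges of mean ± SD of Scn2a and Scn3a overlap, and reads from runs that Scn2a and Scn3a share may have been counted for either. With Scn2a unmeasured, Scn3a held 44.8% ± 2.19 (SD, n = 3) in CAS129 MN and 30.7% in the single 129CAS MN library, where Scn7a held 27.7%.

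Among the sodium channel beta genes, Scn2b, Scn3b and Scn4b rose in MN. Scn3b (chr9:40269217-40291618, plus strand), a subunit that tunes gating, was 2.11 and 0.596 CPM in BL6 PSC, 6.55 and 3.36 CPM in CAST PSC and 4.84 and 2.22 CPM in CAS129 PSC. In BL6 MN the level ran from 42.8 to 128 CPM (median 70.4), CAST MN was 131 CPM, 129 MN 41.0 and 49.6 CPM, CAS129 MN 25.7, 30.3 and 38.7 CPM, and 129CAS MN 103 CPM. No MN library came near the PSC range, and the log2 change was 4.29 (SE 0.47, adjusted p = 2.8e-07). Scn2b (chr9:45117782-45130070, plus strand) and Scn4b (chr9:45138395-45154152, plus strand), the beta subunits that bond covalently to the pore, rose as well, with a log2 change of 2.85 (SE 0.49, adjusted p = 4.3e-05) for Scn2b and of 2.07 (SE 0.39, adjusted p = 0.00013) for Scn4b.

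Of the calcium channel pores, 8 of the 9 tested rose in MN and 1, Cacna1s, fell. Cacna1a (chr8:84388440-84640246, plus strand) encodes the P/Q-type channel, which drives transmitter release at mature motor terminals. It was well expressed in stem cells, at 51.4 and 57.6 CPM in BL6 PSC, 38.5 and 36.3 CPM in CAST PSC and 40.9 and 35.7 CPM in CAS129 PSC. In MN it ran from 81.9 to 188 CPM in BL6 (median 108), and it was 194 CPM in CAST, 196 and 256 CPM in 129, 30.8, 49.1 and 39.6 CPM in CAS129 and 160 CPM in 129CAS. The CAS129 MN libraries overlapped those of CAS129 PSC, with a log2 change there of -0.02 (SE 0.30, adjusted p = 0.96); over the 3 genotypes it was 0.76 (SE 0.27, adjusted p = 0.018).

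Cacna1b (chr2:24603887-24763152, minus strand) encodes the N-type channel, the other main channel of transmitter release. It was 11.9 and 8.94 CPM in BL6 PSC, 10.6 and 8.29 CPM in CAST PSC and 4.09 and 4.78 CPM in CAS129 PSC. Its BL6 MN values ran from 63.3 to 206 CPM (median 88.8), CAST MN was 218 CPM, 129 MN 105 and 153 CPM, CAS129 MN 30.0, 44.2 and 52.8 CPM, and 129CAS MN 178 CPM. All MN libraries were above all PSC libraries, and the log2 change was 3.32 (SE 0.30, adjusted p = 2.9e-08).

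Cacna1c (chr6:118587240-119196418, minus strand) encodes an L-type channel of neurons, heart and smooth muscle. It was 2.33 and 0.521 CPM in BL6 PSC, 2.32 and 0.784 CPM in CAST PSC and 2.42 and 1.88 CPM in CAS129 PSC. BL6 MN libraries lay from 30.8 to 78.4 CPM (median 46.7), CAST MN was 84.7 CPM, 129 MN 57.2 and 74.8 CPM, CAS129 MN 61.2, 57.6 and 72.1 CPM, and 129CAS MN 84.4 CPM. Here the CAS129 MN libraries sat among those of BL6, and the log2 change was 4.92 (SE 0.34, adjusted p = 1.6e-09). Since smooth muscle expresses this gene too, the smooth muscle and fibroblast markers given above moved with it; their part in the result was not tested.

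The other pore genes rose by different amounts. Cacna1e (chr1:154390731-154884501, minus strand), the R-type channel, had 0 counts in BL6 and CAS129 PSC and was 2.43 and 0.896 CPM in CAST PSC; in BL6 MN it ran from 28.5 to 99.3 CPM (median 40.2), at least 442-fold higher than in BL6 PSC, and over the 3 genotypes its log2 change was 7.37 (SE 0.68, adjusted p = 3.1e-08). Cacna1d (chr14:30039939-30491455, minus strand), an L-type channel known from persistent currents of motor neurons, had a log2 change of 3.15 (SE 0.49, adjusted p = 1.7e-05). The T-type channels, which open at low voltage, followed with log2 changes of 2.70 (SE 0.45, adjusted p = 3.3e-05) for Cacna1g (chr11:94408391-94474198, minus strand), 2.42 (SE 0.79, adjusted p = 0.011) for Cacna1i (chr15:80287238-80398279, plus strand) and 2.11 (SE 0.33, adjusted p = 1.8e-05) for Cacna1h (chr17:25374285-25433783, minus strand). Cacna1s (chr1:136052750-136119822, plus strand), the L-type channel of skeletal muscle, was low everywhere in this comparison and had a log2 change of -1.44 (SE 0.47, adjusted p = 0.011); without BL6 PSC replicate 2 it was -1.14 (adjusted p = 0.057). In this comparison Cacna1s passed the filter through CAST PSC libraries only (1.27 and 1.23 CPM), so its fall is a weak result. Cacna1f, known from the retina, did not reach the filter, at no more than 0.676 CPM.

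Per kilobase, Cacna1a held 57.6% ± 13.3 (SD, n = 2) of the pore class in BL6 PSC. In BL6 MN, Cacna1a at 30.3% ± 3.33 and Cacna1b at 29.3% ± 2.94 (SD, n = 7) did not differ beyond their spread. In CAS129 MN, Cacna1a held 19.0% and Cacna1c 16.5%, against 6.67% for Cacna1c in BL6 MN.

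**Figure D3:**
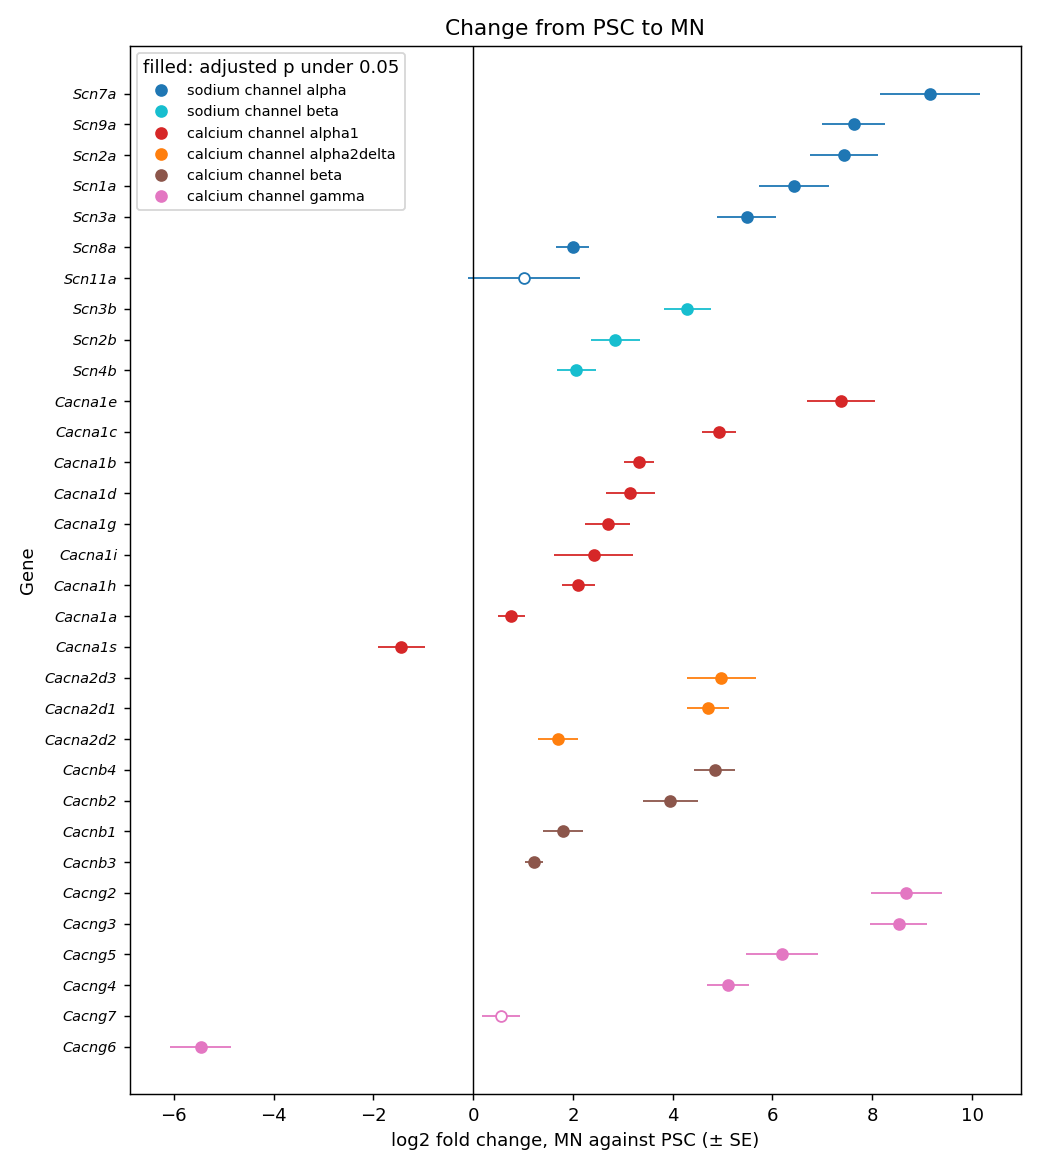
Log2 fold change of MN against PSC for channel genes (± SE), with filled points where the adjusted p-value is under 0.05. Most genes sit to the right of 0, while Cacng6 at -5.46 and Cacna1s at -1.44 sit to the left.

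The auxiliary calcium channel subunits rose with the pores: 3 of 3 tested alpha2delta genes and 4 of 4 beta genes. Cacna2d1 (chr5:15934691-16374511, plus strand), the alpha2delta subunit that binds gabapentin, had a mean level of 186 CPM over the 14 MN libraries. It was 10.6 and 8.94 CPM in BL6 PSC, 2.43 and 2.58 CPM in CAST PSC and 2.88 and 5.63 CPM in CAS129 PSC. The BL6 MN libraries ran from 107 to 184 CPM (median 127), CAST MN was 440 CPM, 129 MN 120 and 185 CPM, CAS129 MN 171, 155 and 175 CPM, and 129CAS MN 390 CPM. CAST and 129CAS stood above the other MN libraries, all of which were above PSC, and the log2 change was 4.70 (SE 0.42, adjusted p = 2.6e-08). Cacna2d3 (chr14:28904943-29721864, minus strand) and Cacna2d2 (chr9:107399612-107529343, plus strand), both expressed in brain, had log2 changes of 4.97 (SE 0.69, adjusted p = 4.5e-06) and, for the latter, 1.70 (SE 0.40, adjusted p = 0.00087). Cacna2d4, a retinal form, did not reach the filter.

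Cacnb3 (chr15:98630840-98644529, plus strand), a beta subunit often paired with the N-type channel, was well expressed in both cell types. It was 48.9 and 61.6 CPM in BL6 PSC, 32.9 and 43.0 CPM in CAST PSC and 46.9 and 51.7 CPM in CAS129 PSC. In BL6 MN the level ran from 106 to 158 CPM (median 124), CAST MN was 212 CPM, 129 MN 120 and 128 CPM, CAS129 MN 103, 108 and 121 CPM, and 129CAS MN 153 CPM. All MN libraries were above all PSC libraries, by 1.21 on the log2 scale (SE 0.18, adjusted p = 9.4e-06). Cacnb4 (chr2:52428320-52676831, minus strand), Cacnb2 (chr2:14603088-14987908, plus strand) and Cacnb1 (chr11:98001508-98023034, minus strand), known from neurons, heart and skeletal muscle respectively, had log2 changes of 4.84 (SE 0.41, adjusted p = 1.2e-08), then 3.95 (SE 0.55, adjusted p = 4.8e-06) and 1.80 (SE 0.40, adjusted p = 0.00064). Per kilobase, Cacnb3 held 67.7% ± 5.43 (SD, n = 7) of the beta class in BL6 MN.

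Some members overlap an exon of a gene on the other strand, and without a known strand setting reads of the pair cannot be told apart. A430018G15Rik, opposite Cacnb4, had a mean of 7.47 CPM in BL6 MN and 1.60 CPM in 129 MN. Chdh, opposite Cacna1d, had 15.9 CPM in 129CAS MN, where Cacna1d was 19.7 CPM. A730060N03Rik, opposite Cacng2, had a mean of 4.16 CPM in BL6 MN, while Gm11629 and Tpsg1, opposite Cacnb1 and Cacna1h, did not exceed 0.452 and 3.27 CPM in any library.

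The gamma genes split in direction: 4 of the 6 tested rose, Cacng6 fell and Cacng7 did not pass the test. Cacng4 (chr11:107732357-107794557, minus strand) was 2.40 and 0.894 CPM in BL6 PSC, 2.11 and 3.25 CPM in CAST PSC and 1.67 and 1.20 CPM in CAS129 PSC. Its BL6 MN values ran from 43.0 to 182 CPM (median 81.3), CAST MN was 119 CPM, 129 MN 61.0 and 96.8 CPM, CAS129 MN 24.1, 37.2 and 40.2 CPM, and 129CAS MN 137 CPM. This AMPA receptor partner had every MN library above every PSC library and a log2 change of 5.11 (SE 0.42, adjusted p = 8.7e-09).

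Cacng5 (chr11:107874605-107915055, minus strand), another AMPA receptor partner, was 0.436 and 0.372 CPM in BL6 PSC, 0.211 and 0 CPM in CAST PSC and 2.27 and 0.341 CPM in CAS129 PSC. BL6 MN libraries lay from 18.7 to 91.4 CPM (median 43.2), CAST MN was 139 CPM, 129 MN 47.3 and 67.4 CPM, CAS129 MN 14.9, 23.1 and 25.7 CPM, and 129CAS MN 188 CPM. As for Cacna2d1, CAST and 129CAS stood above the other MN libraries, while the rest of the order differed. The log2 change of Cacng5 was 6.19 (SE 0.73, adjusted p = 6.1e-07). Cacng2 (chr15:77991748-78120028, minus strand), known as stargazin, and Cacng3 (chr7:122670492-122769393, plus strand), its near relative, rose from at most 0.224 CPM in PSC, Cacng2 by 8.68 (SE 0.71, adjusted p = 8.2e-09) and Cacng3 by 8.53 (SE 0.57, adjusted p = 9.7e-10) on the log2 scale.

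Cacng6 (chr7:3424195-3435667, plus strand), grouped by sequence with the gamma subunit of skeletal muscle rather than with the AMPA receptor partners, went the other way. It was 2.91 and 6.11 CPM in BL6 PSC, 12.3 and 30.2 CPM in CAST PSC and 11.8 and 18.8 CPM in CAS129 PSC. In MN it had 0 counts in all 7 BL6 libraries, 0.113 CPM in CAST, 0.491 and 0.619 CPM in 129, 1.15, 2.85 and 0.917 CPM in CAS129 and 0.337 CPM in 129CAS. It was at least 87.4-fold lower in BL6 MN than in BL6 PSC, against a floor of 3 counts over the MN group (56.3-fold without BL6 PSC replicate 2), and its log2 change over the 3 genotypes was -5.46 (SE 0.61, adjusted p = 3.1e-07).

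Cacng7 (chr7:3332955-3368221, plus strand), which lies beside Cacng6 and whose product also partners AMPA receptors, was 25.9 and 40.8 CPM in BL6 PSC, 9.08 and 10.8 CPM in CAST PSC and 6.51 and 13.1 CPM in CAS129 PSC. The BL6 MN libraries ran from 14.6 to 35.4 CPM (median 22.2), within or below the BL6 PSC values, while the 3 CAS129 MN libraries, at 26.8, 37 and 27.3 CPM, and the CAST MN library, at 76.0 CPM, were above PSC of their own genotype. Over the 3 genotypes the log2 change was 0.55 (SE 0.38, adjusted p = 0.20), and 1.01 (adjusted p = 0.018) without BL6 PSC replicate 2. Per kilobase, Cacng7 held 82.3% of the gamma class in BL6 PSC, Cacng6 66.2% in CAST PSC and 61.0% in CAS129 PSC, and Cacng4 36.4% ± 2.35 (SD, n = 7) in BL6 MN. Cacng1, the gamma subunit of skeletal muscle, did not reach the filter.

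**Figure D4:**
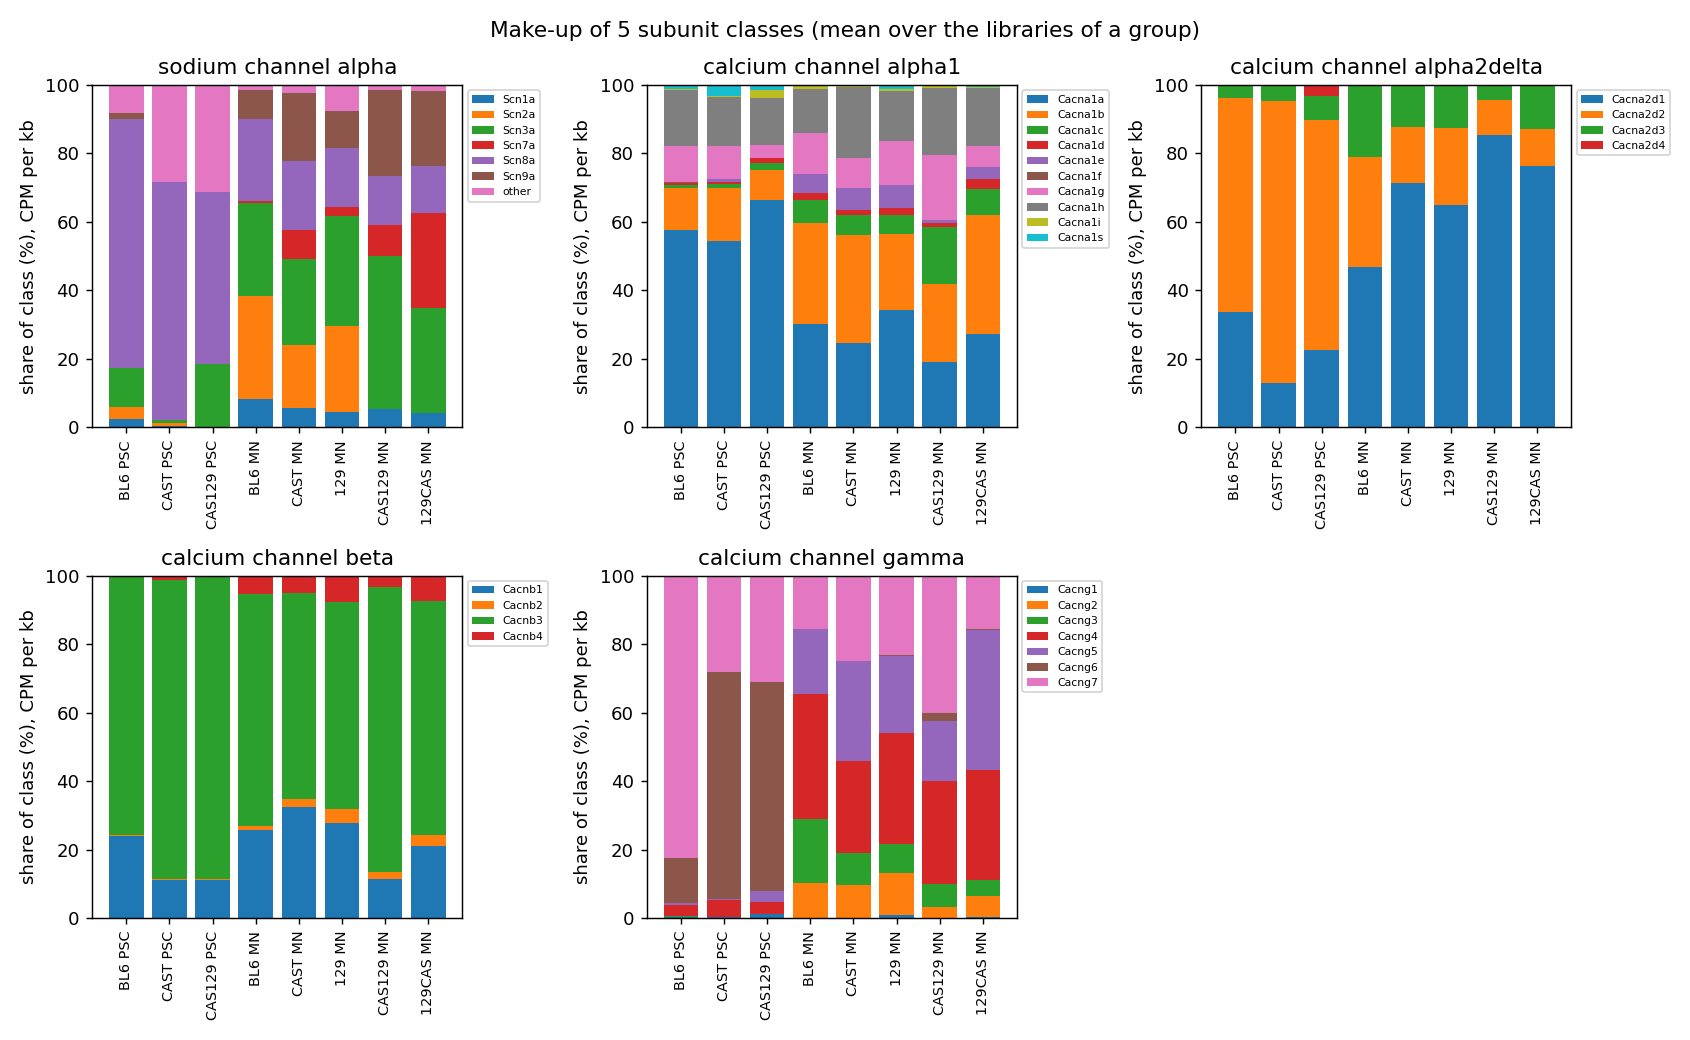
Share of each gene in the summed CPM per kilobase of its subunit class for 5 classes, as the mean over the libraries of each group (bars reach 100%; other stands for the remaining sodium alpha genes). Scn8a fills most of the sodium alpha class in BL6 PSC (72.7%) and shares it with Scn2a and Scn3a in BL6 MN, and Cacng6 and Cacng7 fill most of the gamma class in PSC.

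Known partners of these channels were listed from background knowledge and read in the same comparison. Of 10 tested sodium channel partners, 6 rose and 1 fell, with a median log2 change of 3.83; Cntn1 (10.47) and Nrcam (5.92), adhesion proteins of axons, and the intracellular regulators Fgf12 (7.85) and Fgf13 (4.51) were among those that rose, while Sptbn4, the spectrin that holds channels at the initial segment, had -1.28. Of 19 tested calcium channel partners, 13 rose and 3 fell, with a median of 1.68; Ryr1 (-3.33), the calcium release channel of skeletal muscle, was among those that fell. All 4 genes of the sodium leak channel complex rose, Nalcn, its pore, by 5.39 (SE 0.53, adjusted p = 6.8e-08). REST is a repressor that holds neuronal genes, sodium channels among them, silent in other cells. Of 8 tested genes of its complex, 5 fell and 3 did not pass the test; among the 5 were Rest itself with a log2 change of -2.07 (SE 0.23, adjusted p = 3e-07) and its corepressor Rcor2 with one of -5.44 (SE 0.27, adjusted p = 7e-11).

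Within MN, the CAS129 libraries had lower levels of most channel genes than BL6. Besides the 450 genes at 0 in every hybrid library, others may be counted only in part there. This was not tested and limits every comparison of CAS129 with another genotype. Of 33 tested members, 19 were lower and 3 higher, beside 29.1% and 28.3% of all genes (57.4% together). The median log2 difference of the members was -1.24, against -0.02 for all genes. Cacna1e had the largest difference among the lower genes: the CAS129 MN libraries had 5.56, 2.34 and 3.67 CPM against at least 28.5 CPM in every BL6 MN library, a difference of -3.62 (SE 0.48, adjusted p = 3.3e-05).

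Other members with no overlap between these groups came from several classes. The share of all genes with no overlap is not given for this or the later comparisons of genotypes. Non-overlap there only describes the values. Cacna2d3 had 6.06, 4.19 and 6.97 CPM in CAS129 MN against 19.6 to 94.0 CPM in BL6 MN (median 44.8), a log2 difference of -3.03 (SE 0.47, adjusted p = 0.00014). Scn8a, with the values given above, differed by -2.49 (SE 0.42, adjusted p = 0.00025) and Cacna1a by -1.52 (SE 0.25, adjusted p = 0.00021). Scn1a had 2.62, 3.68 and 3.85 CPM in CAS129 MN, below the BL6 MN minimum of 4.99 CPM, and differed by -2.56 (SE 0.67, adjusted p = 0.0057).

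Of the AMPA receptor partners, Cacng2, Cacng3, Cacng4 and Cacng5 were lower. Cacng2 had 3.93, 7.03 and 6.42 CPM in CAS129 MN against 16.2 to 88.7 CPM in BL6 MN (median 35.7), a log2 difference of -2.78 (SE 0.55, adjusted p = 0.00083). Cacng3 had 6.06, 5.86 and 5.32 CPM against 15.9 to 62.7 CPM (median 41.8), a difference of -2.63 (SE 0.47, adjusted p = 0.00037). Cacna2d2 had 7.36, 13.4 and 17.8 CPM against 26.5 to 131 CPM (median 59.3), a difference of -2.37 (SE 0.47, adjusted p = 0.00085). For all 3 genes, every CAS129 MN library lay below every BL6 MN library.

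Further lower members were called. Cacnb1 had 13.3, 16.6 and 21.6 CPM in CAS129 MN against 30.2 to 99 CPM in BL6 MN (median 60.0), a log2 difference of -1.72, and Cacna1d 3.44, 3.18 and 2.93 CPM against 3.91 to 16.8 CPM (median 10.5), a difference of -1.55. Cacnb4 had 7.86, 9.21 and 12.5 CPM against 12.4 to 44.6 CPM (median 22.6) and Cacna1i 0.818, 1.34 and 0.917 CPM against 1.35 to 10.9 CPM (median 4.52), so that the Cacnb4 ranges overlapped and the Cacna1i ranges did not. The others included Cacna1i (-2.22), Cacng4 (-1.41), Cacna1b (-1.26), Cacnb4 (-1.24), Cacng5 (-1.22), Scn3b (-1.19) and Scn3a (-1.04), with adjusted p-values of 0.0051 to 0.035. Of the 22 calls, 14 were lost in no fit that left out 1 library. Among these 14, Cacng6 was under the filter, and so not tested, without CAS129 MN replicate 1 or 2. The calls of Cacna1b, Cacna1i, Cacna1s, Cacnb4, Cacng4, Cacng5 and Scn3a were among those lost in at least 1 such fit. Without CAS129 MN replicate 1, 15 calls remained.

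Not every channel gene was lower in CAS129. Scn7a had 2.62, 3.52 and 5.5 CPM in CAS129 MN, above the BL6 MN maximum of 1.48 CPM, a log2 difference of 2.54 (SE 0.48, adjusted p = 0.00058). Cacng6, with 0 counts in BL6 MN, was at least 31.8-fold higher in CAS129 MN (adjusted p = 0.00062), or 20-fold without CAS129 MN replicate 2. Among MN libraries, Cacng6 reached 1 CPM only in CAS129 replicates 1 and 2 (1.15 and 2.85 CPM). Cacna1s had 0.164, 0.670 and 0.733 CPM against at most 0.361 CPM, a difference of 1.72 (SE 0.67, adjusted p = 0.042). All of these values were under 1 CPM, and Cacna1s passed the filter through 129 and 129CAS MN libraries only. The adjusted p of Cacna1s rose to between 0.051 and 0.16 in 7 of the fits that left out 1 library. Cacna1c (0.42, SE 0.24), Cacna2d1 (0.30, SE 0.18), Cacng7 (0.39, SE 0.26), Cacnb3 (-0.19, SE 0.14), Scn9a (-0.11, SE 0.29) and Scn2b (-0.16, SE 0.36) were among those that did not pass the test.

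Markers of other states moved with this difference. All 8 tested pan-neuronal markers were lower in CAS129 MN (median log2 difference -1.79), at 544 to 698 CPM in sum against 1280 to 3770 CPM in BL6 MN. Of 9 motor neuron markers 7 were lower, at 320 to 417 CPM against 616 to 1850 CPM, and 9 of 10 spinal interneuron markers were lower. Of 8 tested pluripotency markers 7 were higher, at 402 to 1030 CPM in sum against 45.6 to 118 CPM. Smooth muscle and fibroblast markers summed to 24900 to 28500 CPM in CAS129 MN and 15600 to 35200 CPM in BL6 MN. Their part in the result was not tested.

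Set against those markers, the channel genes were not lower in CAS129 as a sum. The 37 genes other than Scn2a came to 126 to 130 CPM per 100 CPM of the 8 pan-neuronal markers in CAS129 MN, against 63.3 to 80.6 in BL6 MN, 77 in CAST MN, 98.3 and 90.9 in 129 MN and 108 in 129CAS MN. Per 100 CPM of the motor neuron markers, the values were 213 to 226 in CAS129 MN and 130 to 209 in BL6 MN. By both measures the CAS129 libraries lay above all BL6 libraries. PSC had few counts of either kind. Per 100 CPM of pan-neuronal markers, the values were 92.8 and 89.4 in BL6 PSC, 92.8 and 99.6 in CAST PSC and 200 and 247 in CAS129 PSC. The higher ratio of CAS129 was thus present in stem cells as well and is not particular to MN. Genes of high level weigh most in these sums. Cacna2d1, Cacnb3 and Cacna1c, not called lower, made up 171, 103 and 61.2 of 706 CPM in CAS129 MN replicate 1. In BL6 MN replicate 1 they made up 167, 157 and 59 of 1650 CPM. Of the pan-neuronal markers, Stmn2 ran from 84.3 to 91.3 CPM in CAS129 MN and from 371 to 1180 CPM in BL6 MN. Ratios without these genes were not computed, so the sums do not show how single channel genes stood against the markers.

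**Figure D5:**
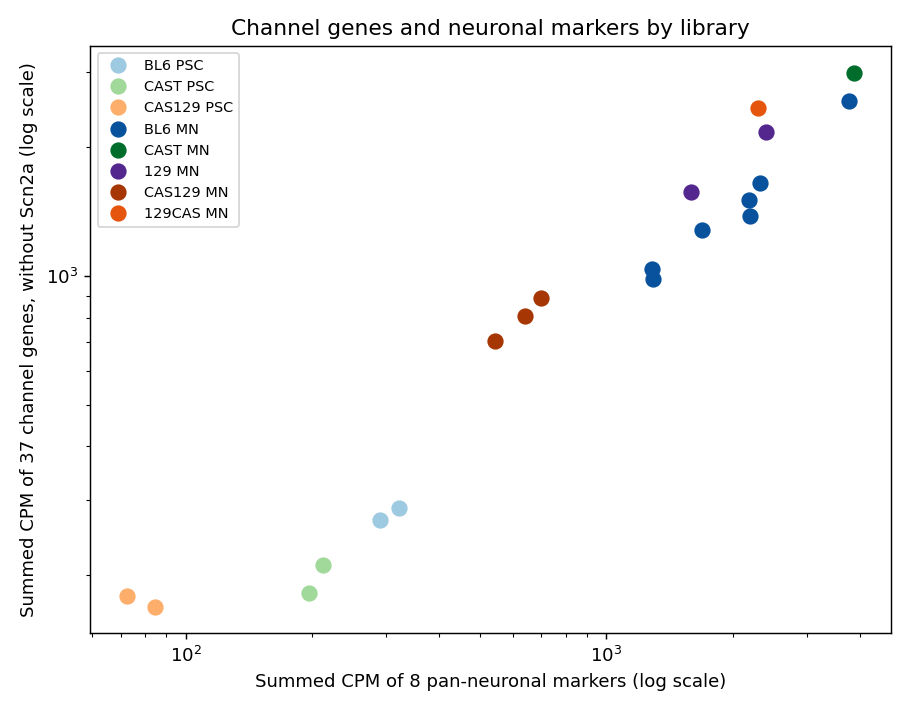
Summed CPM of the 37 channel genes other than Scn2a against the summed CPM of 8 pan-neuronal markers, each point a library, both axes logarithmic. The 3 CAS129 MN libraries lie below the BL6 MN libraries on both axes, and BL6 MN replicate 2 and CAST MN lie at the upper right.

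CAS129 MN also had lower levels than 129 MN. Of 33 members 21 were lower and 0 higher, beside 28.1% and 26.5% of all genes (54.6% together); at an unadjusted p under 0.05 edgeR had 23 lower and 0 higher, and DESeq2 called 22 lower and 0 higher. Cacna1e (-4.62, SE 0.53, adjusted p = 1.4e-05) and Cacna1a (-2.43, SE 0.30, adjusted p = 2.7e-05) were among them. Of the T-type channels, Cacna1g had 32.6, 32.7 and 39.2 CPM in CAS129 MN against 65.6 and 86.6 CPM in 129 MN (-1.06, adjusted p = 0.037), and Cacna1h 27.3, 37.5 and 40.0 CPM against 69.7 and 95.3 CPM (-1.17, adjusted p = 0.018). The Cacna1g call was lost in each of the 5 fits that left out 1 library (adjusted p = 0.059 to 0.19), and that of Cacna1h without 129 MN replicate 2 (0.13) or CAS129 MN replicate 1 (0.068). These comparisons share the CAS129 libraries with those against BL6. Of the 21 calls, 13 were kept whichever 1 library was left out, and 13 remained without 129 MN replicate 2. Markers moved here too: 6 of 8 pan-neuronal markers were lower in CAS129 MN (median log2 difference -1.79), as were 2 of 9 motor neuron and 5 of 8 skeletal muscle markers, while 6 of 8 pluripotency markers (5.92) and 9 of 10 smooth muscle and fibroblast markers (1.88) were higher. Their part in the result was not tested. The single 129CAS MN library, a hybrid written in the other order, was not low: Scn8a was 102 CPM, Cacna1a 160 CPM and Cacna1e 43.3 CPM, and its 8 pan-neuronal markers summed to 2290 CPM. With 1 library, its difference from CAS129 was not tested.

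Among the channel genes higher in 129 MN than in BL6 MN was Cacna1s, known from skeletal muscle. Of 34 tested members 9 were higher and 2 lower, beside 18.3% and 18.1% of all genes (36.4% together), and the median log2 difference was 0.42 against 0.00. Cacna1s had 4.61 and 4.46 CPM in 129 MN against at most 0.361 CPM in BL6 MN, a difference of 4.76 (SE 0.50, adjusted p = 1e-05). Both 129 libraries lay above every BL6 library. Among MN libraries, Cacna1s reached 1 CPM only in 129 and in 129CAS (1.87 CPM), and it passed the filter through them.

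Further members were higher. Scn7a had 5.90 and 6.48 CPM in 129 MN, a log2 difference of 3.15 (SE 0.45, adjusted p = 0.00013), Scn4b had 6.55 and 7.67 CPM against 1.74 to 3.05 CPM (median 2.20), a difference of 1.63 (SE 0.27, adjusted p = 0.0005), and Cacnb2 had 23.9 and 32.3 CPM against 4.60 to 14.5 CPM (median 9.03), a difference of 1.58 (SE 0.30, adjusted p = 0.0013). None of these overlapped BL6. Scn9a (1.18), Cacna1h (0.92) and Cacna1a (0.91) were also higher, and Cacng6 was at least 10.8-fold higher (adjusted p = 0.0055). Both 129 values of Cacng6 (0.491 and 0.619 CPM) were under 1 CPM, and it passed the filter through CAS129 MN libraries only. Cacna2d3 (-1.31, adjusted p = 0.044) and Cacng3 (-1.28, adjusted p = 0.049) were lower.

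Not all of these calls held with 1 library fewer. Cacna1s, Scn7a, Scn4b, Cacnb2 and Cacng6 kept theirs whichever library was left out. Cacna1a (adjusted p = 0.16) and Scn9a (0.14) lost theirs without 129 MN replicate 2, without which 6 calls remained; Cacna1h, Cacna2d3 and Cacng3 lost theirs in 5 or more such fits. Without BL6 MN replicate 2, the count was 17, and Cacna1e (1.27, adjusted p = 0.0011) and Scn3a (1.23, adjusted p = 0.0033) were among the genes gained.

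Skeletal muscle markers moved with these genes. All 8 tested were higher in 129 MN (median log2 difference 3.84), at 335 and 337 CPM in sum against 19.0 to 65.4 CPM in BL6 MN; Myog was 7.86 and 9.53 CPM and Myh3 41.5 and 75.3 CPM in 129 MN. Of 5 tested cardiac markers 2 were higher and 1 lower, and 6 of 10 smooth muscle and fibroblast markers were lower, at 6850 and 11200 CPM in sum. Of 9 motor neuron markers 4 were lower (median log2 difference -1.07) and of 10 spinal interneuron markers 4 were lower (-1.15), and the median over 9 pan-neuronal markers was 0.16; of 8 pluripotency markers 4 were higher and 2 lower. The 129 libraries were also deeper, with totals of 41.75 M and 44.57 M counts, where no BL6 MN library was under 7.6 M or over 10.36 M. The part of these in the result was not tested.

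The single CAST MN library had 9 of 34 members above BL6 MN and 0 below, beside 5.76% and 6.58% of all genes (12.3% together); the median log2 difference was 0.92 against -0.05. The count below BL6 was 0 also at an unadjusted p under 0.05 in edgeR and with DESeq2. The test assumes that 1 library varies like the other groups. Scn7a was 30.9 CPM, a difference of 5.47 (SE 0.49, adjusted p = 1e-05), Scn9a was 126 CPM, a difference of 2.61 (SE 0.35, adjusted p = 0.00034), and Cacna2d1 was 440 CPM, a difference of 1.63 (SE 0.24, adjusted p = 0.00067). All 3 lay above every BL6 MN library.

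Scn11a was 4.73 CPM in CAST MN against at most 0.920 CPM in BL6 MN, a log2 difference of 3.75 (SE 0.80, adjusted p = 0.0084). It passed the filter through the CAST and 129CAS MN libraries only (1.31 CPM in 129CAS). Cacng7 was 76.0 CPM (1.63, SE 0.35, adjusted p = 0.0085), Cacna1h 141 CPM (1.69, SE 0.38, adjusted p = 0.012) and Scn2b 35.6 CPM (1.71, SE 0.46, adjusted p = 0.028). Cacnb2 (1.38, adjusted p = 0.042) and Cacnb3 (0.68, adjusted p = 0.049) lost their calls without BL6 MN replicate 3, 5 or 6 and without some other single BL6 libraries. With BL6 MN replicate 2 left out, 19 members were called. Beside these, 2 of 7 tested sensory neuron markers were higher, Pou4f1 by 2.90 and Avil by 3.16, at 339 CPM in sum for the list against 104 to 377 CPM in BL6 MN, as were 1 of 9 pan-neuronal markers (3880 CPM in sum) and 1 of 9 motor neuron markers (2140 CPM). Of 10 smooth muscle and fibroblast markers 2 were lower (median log2 difference -1.87), at 9860 CPM in sum, below every BL6 MN library (15600 to 35200 CPM). Their part in the result was not tested.

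Several of the genes high in CAST MN were also high in the 129CAS MN library, given as values with no test. Scn7a was 94.4 CPM there, Scn9a 130 CPM, Cacna2d1 390 CPM and Cacng5 188 CPM. The CAS129 MN means of these genes were 3.88, 18.1, 167 and 21.2 CPM, so the hybrids written in the 2 orders lay far apart.

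Within PSC, of 23 channel genes tested, 1 was higher and 0 lower in CAST than in BL6, beside 5.74% and 4.81% of all genes (10.5% together): Cacng6, by 2.36 (SE 0.62, adjusted p = 0.046), a call lost when any 1 of the 4 libraries was left out. At an unadjusted p under 0.05 edgeR had 3 higher and 6 lower there, and DESeq2 called 1 higher and 4 lower. In CAS129 PSC 0 were higher and 3 lower than in BL6, beside 8.51% and 12.4% (20.9% together): among them Scn8a (-1.39, SE 0.42, adjusted p = 0.047) and Cacng7 (-1.61, SE 0.49, adjusted p = 0.049). At an unadjusted p under 0.05 edgeR had 1 higher and 6 lower, and DESeq2 called 1 higher and 4 lower. Each of the 3 lost its call without at least 1 library; without BL6 PSC replicate 2 only 1 was left.

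The change from PSC to MN was also compared between CAS129 and BL6. Of 33 members, 4 had a larger and 2 a smaller change in CAS129, beside 14.9% and 5.01% of all genes (19.9% together), and the median over all genes was itself 0.28. Cacng6 had a fitted difference of 5.55 (SE 1.32, adjusted p = 0.014), its fall being smaller in CAS129 (-3.31), and kept its call in every fit. With 0 counts in BL6 MN, its fall in BL6 is known only as a bound (at least 87.4-fold). The size of the difference is therefore not fixed by the data. Cacng7 differed by 2.14 (SE 0.53, adjusted p = 0.01), with a CAS129 change of 1.53, Cacna2d1 by 1.49 (SE 0.41, adjusted p = 0.017) and Scn2b by 2.46 (SE 0.82, adjusted p = 0.045). Scn2b stood at 2.18 and 3.80 CPM in BL6 PSC, 0.454 and 0.512 CPM in CAS129 PSC, 6.18 to 18.2 CPM in BL6 MN (median 8.24) and 5.56, 10.7 and 11.6 CPM in CAS129 MN. Scn3b differed by -2.58 (SE 0.72, adjusted p = 0.019) and Cacna1i by -4.35 (SE 1.28, adjusted p = 0.024).

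Those 5 calls rested on single libraries. Cacng7 was 1.65 (adjusted p = 0.059) without BL6 PSC replicate 2 and 1.62 (0.064) without CAS129 PSC replicate 1. Cacna2d1 was 0.98 (adjusted p = 0.12) and Scn3b -2.02 (0.14) without CAS129 PSC replicate 1, and Scn3b was -2.09 (0.086) without BL6 PSC replicate 2. Cacna1i was -3.35 (adjusted p = 0.22) without CAS129 PSC replicate 2, and Scn2b had adjusted p-values of 0.057 to 0.18 in 10 such fits. The count was 2 without BL6 PSC replicate 2 and 10 without BL6 MN replicate 3.

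Among the 7 BL6 MN libraries the channel genes moved up and down together. Replicate 2 was the highest for 11 of the 12 members with the highest mean MN level in CPM (not per kilobase), and replicates 3 and 4 were among the lowest pair for 11 and 9 of them. The summed level of the 38 genes ran from 1020 to 2720 CPM, a ratio of 2.67. The pan-neuronal sum ran over the same libraries from 1280 to 3770 CPM and the motor neuron sum from 616 to 1850 CPM, with replicate 2 the highest in both. Replicate 2 was also the highest in spinal interneuron markers (549 CPM in sum against 90.1 to 353 CPM in the other libraries) and sensory neuron markers (377 CPM against 104 to 194 CPM). Its astroglial and oligodendroglial markers summed to 407 CPM against 27.5 to 92.7 CPM in the other 6, with Gfap at 143 CPM, Fabp7 at 113 CPM and Aqp4 at 105 CPM. The part of these markers in the spread was not tested. The shares of all genes that were highest in replicate 2, or lowest in replicates 3 and 4, are not given. The counts of members above therefore only describe the libraries.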

How the data were processed

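Per the labels' protocols, RNA was DNase-treated, captured on poly-T beads and copied from random hexamers. The values are whole-number counts per gene deposited by the authors, with no normalization. The submitters' processing notes name STAR and GRCm38 (mm10) for the 20 libraries used. For 7 further samples, not analysed here, they name HTSeq, SAMtools and TopHat2 2.1.1. For the 20 libraries, no annotation, counting program or strand setting is given in the sources used here. Of 28 count columns, 8 matched no sample and were not used. Of 27071 identifiers, 27031 matched GENCODE M21.

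Members and gene lists were chosen with earlier results of these data known. Genes with at least 1 CPM in 2 libraries were tested with edgeR 4.0.16 in R 4.3.3 (TMM, glmQLFit, glmQLFTest, 2-sided, Benjamini-Hochberg, 0.05); with hybrids, genes at 0 in all 6 hybrid libraries were left out. The MN and PSC comparison took the 17 libraries of genotypes with both cell types, with a term for genotype; changes within a genotype came from a fit to all 20 libraries. Genotypes were contrasted in separate fits to the 14 MN and the 6 PSC libraries. SE is the absolute log2 fold change over the square root of F. Members with 0 in a group are given as bounds from 3 counts over that group. The CAS129 minus BL6 difference of Cacng6 is given as fitted. Shares of a class use CPM per kilobase of union exon. Alternatives were DESeq2 1.42.0, other scalings, no filter, a replicate block and leaving out each library. The scripts were tested on simulated data.

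The 12 members with the highest mean CPM in MN, and those called between genotypes, are named with their values; other lists give up to 4 called members. Values of some members, partner genes and sequences are not reported here. The labels do not say that replicates were separate cultures; p-values thus reflect the spread among these libraries only, which may be technical. Replicates differed beyond sampling noise, with a chi-square of at least 2.96 per degree of freedom in each of 28 pairs. Counting precision follows the library totals. The SE comes from F of the quasi-likelihood test and the SD from the spread over libraries, so neither is counting error alone.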

Additional observations from a re-analysis of the deposited data

Results flagged for a closer look

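In BL6 MN, replicate 2 stood apart from the other 6 libraries for 9 of the 30 members examined, by the gap to the next library against the whole range. It had 99.3 CPM of Cacna1e, 78.9 of Cacna1h, 206 of Cacna1b, 188 of Cacna1a, 44.6 of Cacnb4, 156 of Scn8a, 130 of Scn3a, 167 of Scn2a and 37.1 of Scn9a. Chance sets apart about 1 group in 20 where the libraries are alike, and these genes share the library. The share of all genes for which replicate 2 stood apart is not given. The count is therefore not a result about the channel genes. Its astroglial and oligodendroglial markers summed to 407 CPM against 27.5 to 92.7 CPM in the others; their part was not tested.

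For 6 members, a test of the difference itself called the MN against PSC change of CAS129 unlike that of BL6. The fitted log2 differences were 5.55 for Cacng6, 2.14 for Cacng7, 1.49 for Cacna2d1, 2.46 for Scn2b, -2.58 for Scn3b and -4.35 for Cacna1i. The size of the Cacng6 value is not fixed by the data, since BL6 MN had 0 counts of it.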

How the results depend on the processing

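No call reversed its direction among 4561 values of single members under the alternatives: 4300 kept their side of the threshold, 176 lost the call and 85 gained it. Changes of sign in members without a call are not given here. For MN against PSC, other scalings, DESeq2, no filter and the replicate block gave 30 calls over the 3 genotypes, as reported. Leaving out 1 library gave 29 to 30 there, 28 to 32 in BL6, 23 to 24 in CAS129 and 30 to 32 in CAST. For 129 against BL6 MN (11 calls), the replicate block gave 7, a fit on those 2 groups alone 7, and leaving out 1 library 6 to 17. For CAST against BL6 MN (9), the replicate block gave 4 and leaving out 1 library 7 to 19. For CAS129 against 129 MN (21) and BL6 MN (22), leaving out 1 library gave 13 to 18 and 15 to 23. For CAST against BL6 PSC (1), DESeq2 gave 5, no filter 6, the replicate block 5, RLE scaling 2 and leaving out 1 library 0 to 2. For CAS129 against BL6 PSC (3), DESeq2 gave 5, no filter 6, the replicate block 6 and leaving out 1 library 1 to 3. For the CAS129 minus BL6 difference (6: 4 up, 2 down), DESeq2 gave 11 (3 up, 8 down), RLE scaling 6 (2 up, 4 down), and leaving out 1 library 2 to 10; the median of all genes was 0.28 with TMM and -0.04 with DESeq2. Per kilobase of the longest transcript, the Cacna1a share in BL6 MN was 34.2% in place of 30.3%. The cause of these changes was not tested. Same-numbered libraries correlated at -0.12 to 0.43 over 31 pairs, not all above 0, so the numbers were not taken to pair them. Within PSC the 6 pairs gave 0.02 to 0.36. Each value occurred for both numbers: 0.31 for BL6 with CAST, 0.02 for BL6 with CAS129 and 0.36 for CAST with CAS129. With 2 libraries per group these are not 6 separate results. Each library correlated better with its own number there, as a hint from the data and not the design. The PSC comparisons reported first do not use the numbers.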
